A study of Mus musculus with 6 samples.

Results

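The genes described here carry sugars, monocarboxylates, sulfate, phosphate, bicarbonate, protons, chloride, organic ions and fatty acids across membranes. They were taken by symbol, as the rows of the expression table that begin with Slc2a, Slc4a, Slc5a, Slc9a, Slc12a, Slc13a, Slc16a, Slc17a, Slc20a, Slc22a, Slc26a, Slc27a, Slc34a or Slco followed by a digit. The rule found 149 of 24421 rows. Of these, 142 name carriers and 7 do not: the scaffolds Slc9a3r1 and Slc9a3r2, Slc4a1ap, the antisense transcript Slc13a2os and the pseudogenes Slc2a4rg-ps, Slc22a13b-ps and, by its GENCODE biotype, Slco6b1. The rule reads symbols only.

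The proximal tubule is the kidney segment that returns most of the filtered glucose, phosphate, bicarbonate and organic acids to the blood. Its apical carriers, such as the sodium-glucose cotransporters (Slc5a), some of the sodium-phosphate cotransporters (Slc34a) and the proton exchanger Slc9a3, draw on the sodium gradient made by the Na,K-ATPase. Basolateral carriers, such as the facilitative glucose carriers (Slc2a), the bicarbonate cotransporter Slc4a4 and some of the organic ion carriers (Slc22a), pass solutes to or from the blood side. Cultured tubular cells are known to lose part of this set, so the level in culture is reported beside each difference.

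Messenger RNA came from primary mouse proximal tubular epithelial cells grown in serum-containing medium. All 6 libraries came from cells given 20 µM erastin2, an inhibitor of the cystine/glutamate antiporter used to provoke ferroptosis, for 24 h. The libraries were 3 labelled Atg5F/F (floxed Atg5, the control genotype) and 3 labelled Atg5KO, all with 1 batch date, and no untreated cells were included. How Atg5 was deleted, the sex and age of the animals, and whether replicates came from separate animals or cultures are details not given in the labels. P-values therefore cover only the spread seen among these 6 libraries, which may be technical. Whether a difference needs the drug or is there without it cannot be told apart.

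Values were FPKM (fragments per kilobase of gene, scaled to the library total), which are per length and so can be compared between genes. Worked back from them, the totals were 30004933, 15528454 and 22332418 for the F/F-labelled replicates 1 to 3 and 19724355, 16922491 and 17402904 reads for the KO-labelled replicates 1 to 3. An observed 0 allows up to 3 reads, or 0.1 to 0.193 RPM in these libraries, for counting error only. Atg5, an autophagy gene and the gene targeted, was not lower in the KO-labelled libraries: it stood at 8.76, 8.95 and 7.94 FPKM in the F/F-labelled and 13.3, 11.5 and 12.7 FPKM in the KO-labelled replicates. Its log2 fold change was 0.50 (SE 0.066, limma adjusted p = 5.5e-04). A value for the whole gene does not show a missing exon, so every direction below rests on the labels. Among markers of the labelled cell type, 8 of 15 proximal tubule genes reached 1 FPKM, Dpep1 was at 0, and their summed level was 267 to 292 FPKM in the F/F-labelled against 156 to 173 FPKM in the KO-labelled libraries. Of the 8 that were tested 6 were lower, among them Lrp2 and Ggt1, and 2 were higher, Mme and Aqp1 (Aqp1 not without KO-labelled replicate 1, adjusted p = 0.0622). Most of the difference in that sum was Ggt1, with means of 127 and 54.4 FPKM, and Lrp2, with 54.4 and 35.4 FPKM. The summed levels of collecting duct markers were 1.01 to 1.67 FPKM and of fibroblast markers 0.124 to 0.399 FPKM over the 6 libraries, with Aqp2, Foxi1 and Atp6v1g3 at 0. Those of thick ascending limb and distal tubule summed to 3.82 to 5.10 FPKM, of podocytes to 27.2 to 31.3, of leukocytes to 10.3 to 13.2 and of urothelium to 0.141 to 0.294 FPKM. Endothelial markers summed to 8.49 to 10.0 FPKM in the F/F-labelled and 5.27 to 6.56 FPKM in the KO-labelled libraries, nearly all of it Kdr. In such bulk samples fewer cells of a type and less RNA per cell cannot be told apart.

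Upstream stretches are printed for the 2 tested monocarboxylate carriers with the largest decreases on the log2(FPKM + 1) scale used below. In voom on genes with at least 10 reads, also described below, Slc16a10 fell more than Slc16a1 (log2 fold change -0.97 against -0.86). Each stretch is the 250 bases before the RefSeq start, on GRCm38.p6, 5′ to 3′ on the gene's strand, and overlaps no annotated exon. Slc16a12 lies at chr19:34747329-34747578 on the minus strand and Slc16a1 at chr3:104638414-104638663 on the plus strand. Capitals mark ACGTG, a form of the core of the hypoxia response element, read on both strands. Its other form, GCGTG, was neither searched nor marked. In both genes the 2 matches overlap and form CACGTG, which is also the palindromic E-box. The first base lies 240 bases before the start of Slc16a12 and 200 before that of Slc16a1.
Slc16a12: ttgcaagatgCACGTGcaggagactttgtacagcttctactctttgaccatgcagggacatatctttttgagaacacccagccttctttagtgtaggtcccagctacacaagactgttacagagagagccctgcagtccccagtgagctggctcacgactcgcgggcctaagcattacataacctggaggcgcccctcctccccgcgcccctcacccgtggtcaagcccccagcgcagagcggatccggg
Slc16a1: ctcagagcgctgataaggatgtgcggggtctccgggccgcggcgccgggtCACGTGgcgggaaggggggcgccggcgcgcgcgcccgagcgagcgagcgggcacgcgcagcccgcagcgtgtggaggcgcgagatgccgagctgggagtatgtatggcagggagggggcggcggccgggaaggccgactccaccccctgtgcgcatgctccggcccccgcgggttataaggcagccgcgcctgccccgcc
Of the 149 rows, 114 had an entry in the RefSeq promoter table. ACGTG was found in 16.6% of all 32851 windows of this length and in 13.9% of the 137 windows of the carriers. For the carriers called lower below it was found in 6 of 18 windows (33.3%), those of Slc16a1, Slc16a12, Slc22a17, Slc22a4, Slc27a2 and Slc2a1, and for those called higher in 0 of 4. No window of Slc16a10 held ACGTG. A motif also searched, the HNF1 half-site, was found in 6.43% of all windows and in 6.57% of those of the carriers. For the carriers called lower it was in 1 of 18 windows (5.56%), and for those called higher in 0 of 4. In windows of untested carriers called lower by voom below, ACGTG was in 3 of 14 (21.4%) and the HNF1 half-site in 2 of 14 (14.3%). These counts were not tested. A match describes letters in a window and shows no binding.

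Which of these genes were on in culture? In each group 51 rows had a mean of at least 1 FPKM, 49 of them in both groups. Slc2a2 and Slco4a1 reached it only in the F/F-labelled mean, and Slc22a15 and Slco5a1 only in the KO-labelled mean. The other 96 rows stayed under 1 FPKM in both means, and 17 of them were listed at 0 in all 6 libraries. Every Slc20a row reached 1 FPKM in both groups, as did 8 of 14 Slc16a, 7 of 11 Slc9a and 6 of 11 Slc4a rows. By contrast 0 of 6 Slc13a rows, 0 of 3 Slc34a rows, 1 of 9 Slc17a rows and 2 of 13 Slc5a rows did so in either group. The 26 Slc22a rows had the most members at 0, with 7.

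**Figure D1:**
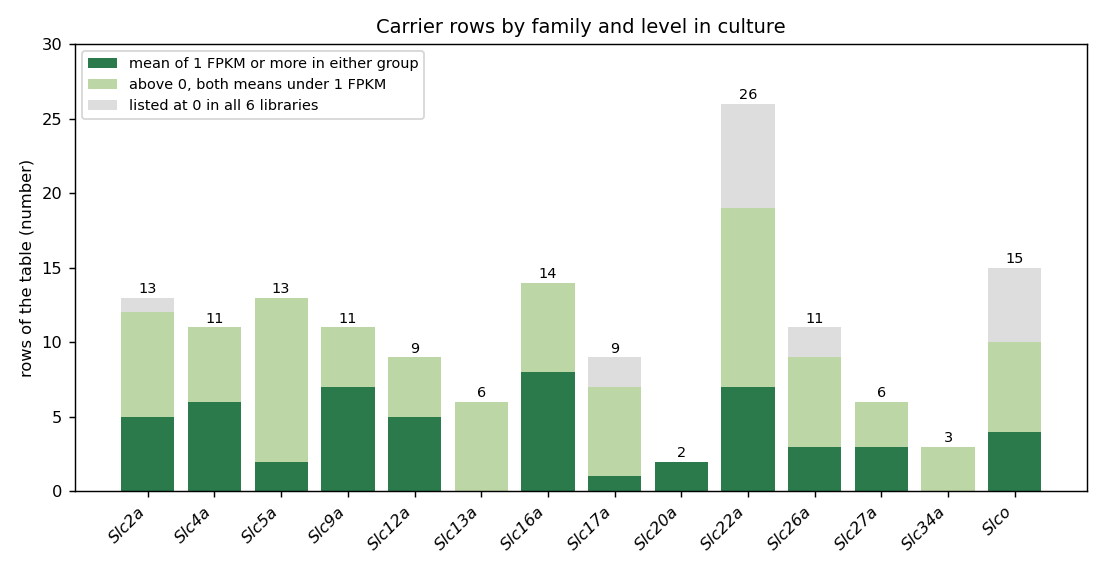
Number of carrier rows in each of the 14 symbol families (bar height), split by whether the mean reached 1 FPKM in either group of 3 libraries, stayed under it in both, or was 0 in all 6 libraries. The Slc13a and Slc34a bars hold no row that reached 1 FPKM, while both Slc20a rows did.

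The most abundant carrier was Slc2a1 (GLUT1), with 279 ± 12.4 FPKM (SD, n = 3) in the F/F-labelled libraries. Next were the prostaglandin carrier Slco2a1 at 208 ± 8.14, the orphan Slc22a23 at 103 ± 1.46, the phosphate carrier Slc20a1 at 88.1 ± 4.62 and Slc4a11, of the bicarbonate carrier family, at 81.6 ± 2.55 FPKM. The summed level of all 149 rows was 1254 to 1315 FPKM in the F/F-labelled and 1089.8 to 1119.6 FPKM in the KO-labelled libraries, and the groups did not overlap. Most of that difference was Slc2a1 and Slco2a1, whose KO-labelled means were 218 and 147 FPKM. Without the 6 most abundant rows the sums were 468 to 493 FPKM in the F/F-labelled and 414 to 419 FPKM in the KO-labelled libraries.

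Of the 149 rows, 50 had at least 1 FPKM in at least 3 libraries and were tested, and 99 were not. On log2(FPKM + 1), a scale that understates the change of low genes, limma called 20 lower and 6 higher in the KO-labelled libraries at an adjusted p under 0.05, and 24 were not called. This is 40% of the tested rows lower and 12% higher. Over all 11559 tested genes 39.2% were called, 17.9% lower and 21.3% higher. The groups did not overlap for 31 of the 50 rows, where 51.9% of all tested genes showed no overlap. The median log2 fold change of the 50 was -0.10, against 0.02 over all tested genes. Slc2a2 passed the filter through the F/F-labelled libraries alone, where it is high, so it had to differ and its place among the 20 is no support. The count of 6 higher fell to 2 without F/F-labelled replicate 3 and to 2 without KO-labelled replicate 1. The decreases stood beside the lower sum of proximal tubule markers given above, whose part in them was not tested. Just outside the filter, by the FPKM of the third-highest library, were Slco5a1 (0.889), Slc22a15 (0.944), Slc27a3 (0.962) and Slco4a1 (0.969). Just inside were Slc9a2 (1.22), Slc22a21 (1.23), Slc26a6 (1.4) and Slc16a8 (1.61).

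**Figure D2:**
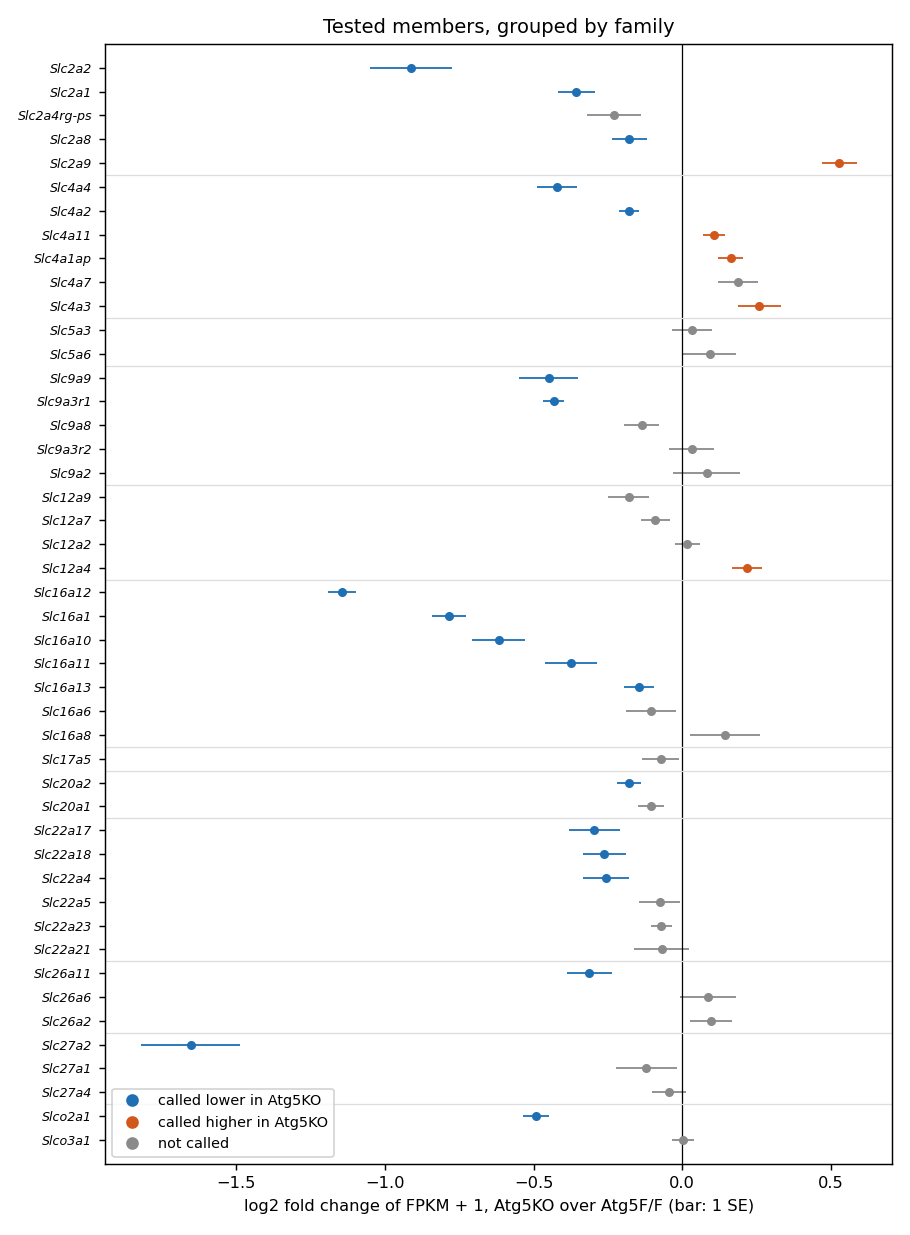
Log2 fold change of FPKM + 1 (horizontal axis, KO-labelled over F/F-labelled, bars of 1 SE) for 46 of the 50 tested rows, in bands by family. The decreases reach furthest for Slc27a2, Slc16a12, Slc2a2 and Slc16a1, most Slc16a rows are called lower and Slc2a9 has the largest increase.

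Of the 5 tested rows of the facilitative glucose carriers 3 were lower, Slc2a2 among them, and 1 was higher. Slc2a1, which lets glucose down its gradient in most cells, stood at 269.6, 293 and 273 FPKM in the F/F-labelled and at 237, 206 and 209 FPKM in the KO-labelled replicates, with no overlap. It fell by 0.36 on the log2 scale (SE 0.062, adjusted p = 0.0023). Slc2a2 (GLUT2), the basolateral glucose exit of the early proximal tubule, stood at 1.71, 2.86 and 2.11 FPKM against 0.690, 0.874 and 0.537 FPKM. The highest of its 6 libraries was F/F-labelled replicate 2. It held 367 reads, recovered from the FPKM values, in the F/F-labelled libraries against 97. In limma's voom on these reads for genes with at least 10 reads over the 6 libraries, a filter that does not look at groups, its log2 fold change was -1.57 (SE 0.25, adjusted p = 3.0e-05). On log2(FPKM + 1) it was -0.91, given here with no test. Without any 1 of the F/F-labelled replicates it no longer had 3 libraries at 1 FPKM and was not tested, and the family then had 1 lower call. Slc2a9 (GLUT9, at chromosome 5, 38349273 to 38503143 in GRCm38), which carries urate, went the other way. It stood at 4.01, 3.97 and 4.19 FPKM in the F/F-labelled and at 6.07, 6.59 and 6.23 FPKM in the KO-labelled replicates, and rose by 0.53 (SE 0.058, adjusted p = 2.0e-04). Slc2a8, an intracellular hexose carrier, went from 5.07 ± 0.0678 to 4.37 ± 0.227 FPKM, a log2 fold change of -0.18 (adjusted p = 0.041). That call was lost without F/F-labelled replicate 1, 2 or 3 or without KO-labelled replicate 1 or 3, at adjusted p of 0.0738 to 0.124. The pseudogene Slc2a4rg-ps was not called (1.72 ± 0.0594 and 1.32 ± 0.206 FPKM, adjusted p = 0.075) but was without KO-labelled replicate 2 (0.0398).

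The sodium-coupled sugar carriers were low in culture. Slc5a2 (SGLT2), the main apical glucose carrier of the early tubule, held 9 reads over the 3 F/F-labelled and 5 over the 3 KO-labelled libraries. The tested Slc5a rows were not called: Slc5a3, which takes up myo-inositol, stood at 2.38 ± 0.0251 and 2.46 ± 0.0952 FPKM, and Slc5a6, the multivitamin carrier, at 2.78 ± 0.335 and 3.02 ± 0.282 FPKM.

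Monocarboxylate carriers of the Slc16a family differed mostly in 1 direction. Of 8 tested rows 6 were lower and 0 higher, and their summed level with the untested rows was 55.5 to 56.3 FPKM in the F/F-labelled and 34.5 to 36.0 FPKM in the KO-labelled libraries. Slc16a12 (MCT12), known as a creatine carrier, had the largest decrease of the family. It stood at 16.4, 16.7 and 17.4 FPKM in the F/F-labelled and at 7.28, 7.01 and 6.89 FPKM in the KO-labelled replicates, a gap far wider than the spread within either group. Its log2 fold change was -1.14 (SE 0.047, adjusted p = 1.8e-06). Slc16a1 (MCT1), the proton-coupled lactate and pyruvate carrier, stood at 13.8, 13.7 and 14.7 FPKM against 8.33, 7.23 and 7.67 FPKM. It fell by 0.78 (SE 0.059, adjusted p = 2.6e-05). Slc16a10, which carries aromatic amino acids, stood at 2.90, 2.36 and 2.87 FPKM against 1.27, 1.48 and 1.5 FPKM, a log2 fold change of -0.62 (SE 0.089, adjusted p = 8.9e-04) and of -0.97 in voom. All 3 were separated between the groups in every library.

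Slc16a11 and Slc16a13 are neighbours on chromosome 11 that face each other, with 371 bases between their ends (70212752 to 70216417 on the plus strand and 70216789 to 70221064 on the minus strand, GRCm38). Slc16a11 went from 4.51 ± 0.252 to 3.27 ± 0.456 FPKM (log2 fold change -0.37, adjusted p = 0.0091) and Slc16a13 from 8.17 ± 0.320 to 7.29 ± 0.0959 FPKM (-0.15, adjusted p = 0.048). The Slc16a13 call was lost when any of the 6 libraries was left out, at adjusted p of 0.0693 to 0.140. Whether the counting used strand is not given in the sources used here. Slc16a6 and Slc16a8 were not called, at adjusted p of 0.35 and 0.36. Slc16a3 (MCT4), the lactate exporter of glycolytic cells, stayed under the filter at 0.736 ± 0.180 and 0.431 ± 0.0513 FPKM.

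Among the phosphate carriers taken by symbol, only the Slc20a pair, which serve most cell types, reached 1 FPKM. The exception was Slc17a5, a lysosomal sialic acid carrier of a family first known for phosphate (19.2 ± 1.81 and 18.2 ± 0.352 FPKM, not called). Slc20a2 stood at 43.2, 46.3 and 45.1 FPKM in the F/F-labelled and at 40.2, 40.1 and 38.3 FPKM in the KO-labelled replicates, with no overlap. It fell by 0.18 (SE 0.041, adjusted p = 0.0087). Slc20a1, at 88.1 ± 4.62 and 81.8 ± 1.39 FPKM, was not called (-0.10, adjusted p = 0.095). It was called without F/F-labelled replicate 2 (adjusted p = 0.022). The sodium-phosphate cotransporters of the Slc34a family were low. Slc34a1 had 25 reads in the F/F-labelled libraries and 1 read in the KO-labelled ones. Slc34a2 stood at 0.871 ± 0.0566 and 0.621 ± 0.0737 FPKM, and Slc34a3 was under 10 reads in all.

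Bicarbonate and anion carriers split in direction. Slc4a4 (NBCe1, chromosome 5, 88886818 to 89239653 in GRCm38), the basolateral exit for reabsorbed bicarbonate, stood at 12.3, 13.6 and 12.2 FPKM against 9.62, 8.39 and 9.73 FPKM. It fell by 0.42 (SE 0.067, adjusted p = 0.0015). Slc4a2, a chloride-bicarbonate exchanger of many epithelia, stood at 44.5, 45.1 and 45 FPKM against 39.4, 40.4 and 38.7 FPKM and fell by 0.18 (SE 0.035, adjusted p = 0.0041). Both pairs of groups were apart by more than their spread. Slc26a11, a sulfate carrier of the family of anion exchangers, fell by 0.31 (7.62 ± 0.913 to 5.91 ± 0.0749 FPKM, adjusted p = 0.012). Slc26a2 and Slc26a6 were not called, at 2.43 ± 0.0743 and 2.67 ± 0.152 FPKM and at 1.27 ± 0.192 and 1.41 ± 0.127 FPKM.

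The 3 higher calls in the Slc4a family were small, and 0 were left without F/F-labelled replicate 3 or KO-labelled replicate 1. Slc4a3, another chloride-bicarbonate exchanger, stood at 1.94, 2.23 and 2.07 FPKM against 2.71, 2.67 and 2.67 FPKM (log2 fold change 0.26, adjusted p = 0.020). The call was lost without F/F-labelled replicate 1 (0.0672) or 3 (0.0641) or KO-labelled replicate 1 (0.0559). Slc4a11 went from 81.6 ± 2.55 to 87.9 ± 0.969 FPKM (0.11, adjusted p = 0.049). Leaving out F/F-labelled replicate 1 or 3 or any KO-labelled replicate gave it adjusted p of 0.0865 to 0.186. Slc4a1ap, a nuclear protein that is no carrier, had a log2 fold change of 0.16 (adjusted p = 0.014), which became 0.0582 without F/F-labelled replicate 3 and 0.0515 without KO-labelled replicate 1. The sodium-bicarbonate cotransporter Slc4a7 was not called (6.05 ± 0.507 and 7.03 ± 0.328 FPKM, adjusted p = 0.053) and was called without F/F-labelled replicate 1 (0.0242).

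Sodium-proton exchangers were mostly not called. Of 7 tested Slc9a rows 2 were lower and 0 higher. Slc9a9, of the endosome, stood at 1.97, 2.43 and 2.51 FPKM against 1.22, 1.42 and 1.61 FPKM and fell by 0.45 (SE 0.099, adjusted p = 0.0075). The other was Slc9a3r1 (NHERF1), a PDZ scaffold that holds Slc9a3 and Slc34a1 at the brush border. It stood at 49.8, 52.2 and 51.9 FPKM against 36.9, 38.4 and 37.9 FPKM and fell by 0.43 (SE 0.037, adjusted p = 5.2e-05), with the groups well apart. Its relative Slc9a3r2 was not called (6.67 ± 0.683 and 6.82 ± 0.335 FPKM). Slc9a8, of the Golgi, was not called, at 10.4 ± 0.540 and 9.36 ± 0.505 FPKM. Slc9a3 itself (NHE3), the apical exchanger that drives bicarbonate reabsorption, held 2 reads in the F/F-labelled and 15 in the KO-labelled libraries.

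Cation-chloride cotransporters set cell volume and chloride, with Slc12a2 bringing chloride in and Slc12a4 and Slc12a7 letting it out with potassium. Slc12a4 (KCC1, chromosome 8, 105943590 to 105966097 in GRCm38) stood at 45.4, 44.4 and 45.8 FPKM in the F/F-labelled and 52.1, 56.5 and 49.7 FPKM in the KO-labelled replicates. It rose by 0.22 (SE 0.049, adjusted p = 0.0082). Slc12a9, whose substrate is unsure, was not called (5.97 ± 0.340 and 5.16 ± 0.413 FPKM, adjusted p = 0.068) but was without KO-labelled replicate 2 (0.0483). Slc12a7 was not called, at 27.6 ± 0.875 and 25.9 ± 1.46 FPKM, nor was Slc12a2, at 21.6 ± 0.314 and 21.9 ± 0.917 FPKM (adjusted p = 0.77). Slc12a1 and Slc12a3, the cotransporters of the thick ascending limb and distal tubule, were both under 10 reads in all.

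Organic ion carriers were led by Slco2a1 (chromosome 9, 102988712 to 103096002 in GRCm38), which takes up prostaglandins. It stood at 199, 214 and 212 FPKM in the F/F-labelled and at 146, 145 and 152 FPKM in the KO-labelled replicates, and no libraries of the groups came near each other. It fell by 0.49 (SE 0.043, adjusted p = 5.9e-05). Slco3a1 had the same mean in both groups, 17.3 ± 0.319 and 17.3 ± 0.130 FPKM. Slc22a23 was not called (103 ± 1.46 and 98.0 ± 1.98 FPKM, adjusted p = 0.14), nor was the carnitine carrier Slc22a5 (8.72 ± 0.585 and 8.22 ± 0.621 FPKM). Slc22a4, the ergothioneine carrier that lies beside Slc22a5 and Slc22a21 on chromosome 11, stood at 9.73, 9.0 and 8.80 FPKM against 8.26, 6.64 and 7.73 FPKM (log2 fold change -0.26, adjusted p = 0.027). The 2 other Slc22a calls were Slc22a17, a lipocalin receptor (-0.30, adjusted p = 0.024), and Slc22a18 (-0.26, adjusted p = 0.021). None of these 3 calls held throughout: without F/F-labelled replicate 2 they were at adjusted p of 0.053, 0.0749 and 0.0626, and the family had 0 lower calls. Slc22a4 also missed the threshold without F/F-labelled replicate 1 (0.0871) or KO-labelled replicate 2 (0.0624). Slc22a17 and Slc22a18 missed it without F/F-labelled replicate 3 or KO-labelled replicate 1 or 3, at 0.0501 to 0.0692.

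Slc27a2 (FATP2, chromosome 2, 126552407 to 126588243 in GRCm38), which takes up long-chain fatty acids and activates very-long-chain ones, had the largest decrease of the 50. Its values were 7.5, 11.4 and 8.00 FPKM in the F/F-labelled and 1.52, 2.26 and 2.70 FPKM in the KO-labelled replicates. F/F-labelled replicate 2 was again the highest, and the groups did not overlap. The log2 fold change was -1.65 (SE 0.17, adjusted p = 1.3e-04). The other tested members of the family were not called: Slc27a1 stood at 7.22 ± 0.829 and 6.56 ± 0.896 FPKM and Slc27a4 at 13.7 ± 0.282 and 13.3 ± 1.03 FPKM.

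**Figure D3:**
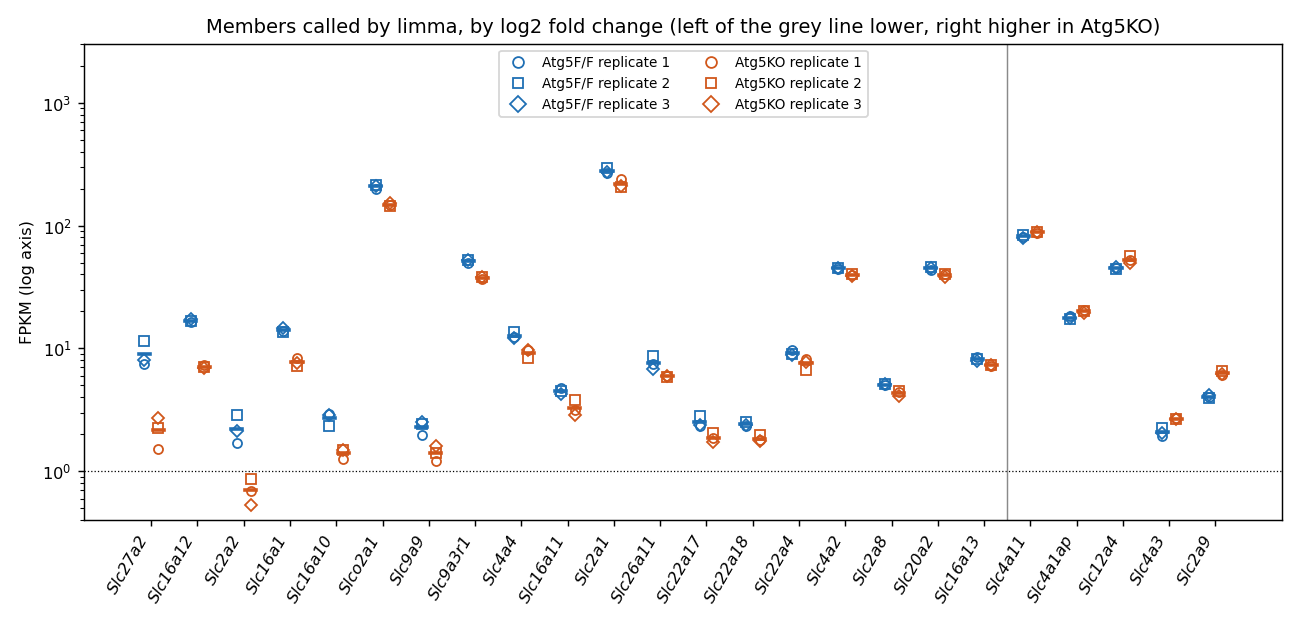
FPKM (log axis) in each of the 6 libraries for 24 of the 26 called rows, ordered by log2 fold change, with short bars at the group means and a dotted line at 1 FPKM. The groups are widest apart for Slc27a2, Slc16a12 and Slc2a2, while the increases right of the grey line are narrow except for Slc2a9.

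Many carriers that define the proximal tubule in the kidney lay under the filter, so recovered reads were used to describe them. Of the 99 untested rows 58 held at least 10 reads over the 6 libraries. Limma's voom on the 15107 genes with that many reads called 14 of the 58 lower and 5 higher, where 16.1% of all genes so tested were lower and 20.7% higher. This test was chosen after the data were seen. Without F/F-labelled replicate 2 the counts were 11 and 2. The 11 included Slco4a1, which was not among the 14 (voom adjusted p = 0.011, against 0.092 with all libraries). F/F-labelled replicate 2 had the highest value for 18 of the 58 rows, against 11, 5, 12, 6 and 6 for F/F-labelled replicates 1 and 3 and KO-labelled replicates 1 to 3. The lower calls stood beside the lower sum of proximal tubule markers, mostly Ggt1 and Lrp2, whose part in them was not tested.

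Among apical sodium-coupled carriers, Slc5a10, a carrier of mannose and fructose, had 0.310, 0.399 and 0.337 FPKM in the F/F-labelled and 0, 0 and 0.0762 FPKM in the KO-labelled replicates. That is 52 reads against 3 (voom adjusted p = 2.6e-04). Slc5a1 (SGLT1) had 48 reads against 7 (0.011), with overlapping groups, and Slc5a12, the apical lactate carrier, had 135 against 60 (0.027). Slc5a8, another sodium-coupled monocarboxylate carrier, went the other way, from 0.424 ± 0.128 to 0.721 ± 0.145 FPKM (0.015). Both Slc5a8 and Slc5a12 lost the call without F/F-labelled replicate 2, at 0.054 and 0.068.

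Slc13a3, which takes up dicarboxylates from the blood, had 0.0724, 0.380 and 0.181 FPKM against 0.0157, 0 and 0 FPKM, or 39 reads against 1 (voom adjusted p = 0.0023). Slc26a1, a sulfate and oxalate exchanger, had 0.651, 0.779 and 1.01 FPKM against 0.157, 0.366 and 0.339 FPKM, or 175 reads against 49 (log2 fold change -1.54, adjusted p = 7.7e-04). The 2 sulfate and dicarboxylate carriers of the brush border, Slc13a1 and Slc13a2, were not called (40 against 13 and 38 against 26 reads). Slc13a2 shares its locus with the antisense row Slc13a2os, so reads of the pair cannot be told apart without the strand setting.

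Slco1a6, an organic anion carrier of the kidney, had 56 reads against 12 (log2 fold change -1.83, voom adjusted p = 0.0047). Slc17a1 and Slc17a4, urate and phosphate carriers whose genes face each other 159 bases apart on chromosome 13, had 38 against 10 and 39 against 6 reads (0.034 and 0.031). Both lost the call without F/F-labelled replicate 2 (0.088 and 0.071). The organic anion carrier Slc22a6 (OAT1) had 3 reads in the F/F-labelled libraries and Slc22a8 (OAT3) none, and the urate exchanger Slc22a12 (URAT1) had 6 reads against 8. At this depth no difference could be seen for these.

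Slc34a1, the apical phosphate carrier, had 0.119, 0.251 and 0.0291 FPKM in the F/F-labelled and 0, 0 and 0.0187 FPKM in the KO-labelled replicates (voom adjusted p = 0.013, and 0.037 without F/F-labelled replicate 2). Its spread within the F/F-labelled group was wide. Among exchangers of the plasma membrane, Slc9a3 was called higher (0.011) on the 17 reads given above. Slc9a5 went from 0.990 ± 0.119 to 0.649 ± 0.0709 FPKM (0.010). The sodium-driven chloride-bicarbonate exchangers Slc4a8 and Slc4a10 parted, from 0.385 ± 0.0924 to 0.589 ± 0.0999 FPKM (higher, 0.0030) and from 0.766 ± 0.0909 to 0.532 ± 0.0642 FPKM (lower, 0.030). The Slc4a10 call was lost without F/F-labelled replicate 2 (0.065). Other calls were Slc16a5 and the choline carrier Slc5a7 lower, and Slco5a1 and the inositol carrier Slc2a13 higher. Slco5a1 and Slc2a13 lost the call without F/F-labelled replicate 2 (0.12 and 0.11).

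**Figure D4:**
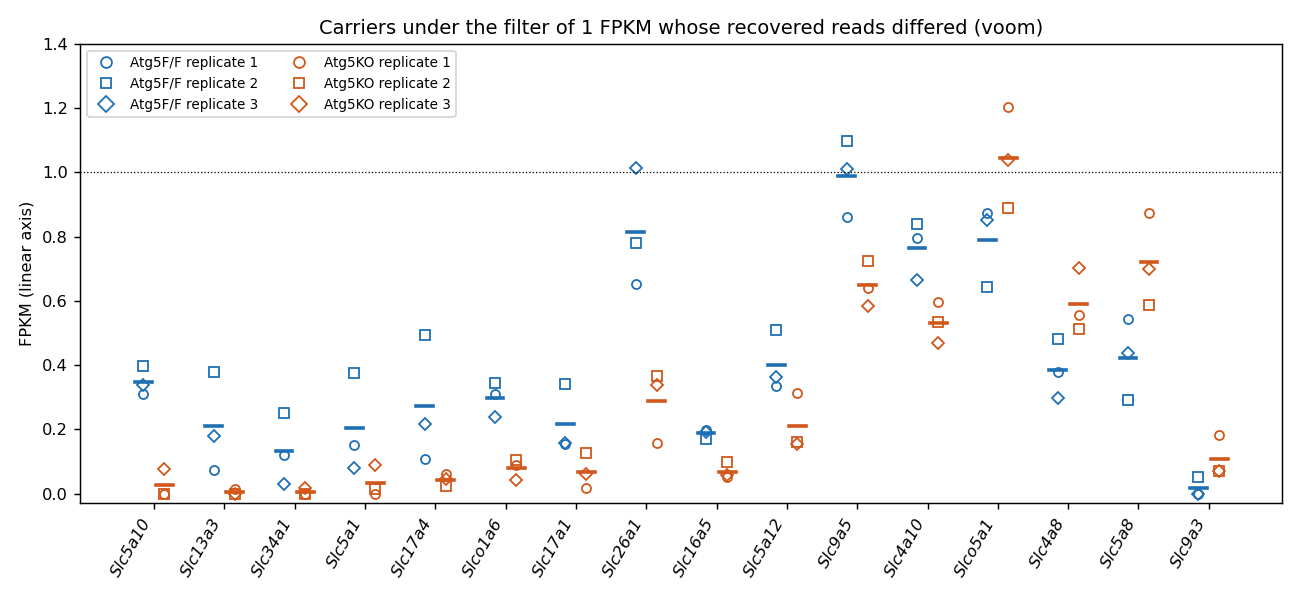
FPKM (linear axis) in each library for 16 of the 19 rows under the filter that voom called, with short bars at group means and a dotted line at 1 FPKM. In Slc13a3 and Slc17a4 the F/F-labelled replicate 2 (blue square) lies well above the other F/F-labelled libraries, and the KO-labelled libraries lie at or near 0.

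Genes known to work with these carriers were followed as a list of 56, of which 54 were in the table and 42 were tested: 22 were lower, 8 were higher and 12 were not called, and the median log2 fold change was -0.16. The list was chosen with earlier results of these data known, so its count of lower calls is no support. The 22 include Kl and Ppara, which passed the filter through the F/F-labelled libraries alone. Pdzk1, Hnf4a and Aqp1 of this list are also among the proximal tubule markers. The shares of all tested genes were those given above, 17.9% lower and 21.3% higher. On the log2(FPKM + 1) scale the largest decreases were those of Fxyd2, the kidney's regulatory subunit of the Na,K-ATPase, and Pth1r, the parathyroid hormone receptor that controls phosphate uptake. Fxyd2 stood at 5.80, 7.03 and 6.43 FPKM against 1.05, 1.28 and 2.09 FPKM (log2 fold change -1.60, SE 0.14, adjusted p = 6.4e-05). Pth1r stood at 4.36, 4.59 and 5.58 FPKM against 1.34, 1.67 and 1.31 FPKM (-1.26, SE 0.099, adjusted p = 3.5e-05). Neither gene's groups overlapped.

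Other large decreases were those of the membrane carbonic anhydrase Car12 (3.35 ± 0.125 to 1.00 ± 0.234 FPKM, -1.12), the FGF23 co-receptor Kl (1.57 ± 0.177 to 0.294 ± 0.0949 FPKM, -0.99) and the transcription factor Maf (9.04 ± 0.395 to 4.4 ± 0.630 FPKM, -0.90). Car12 and Maf were called, at adjusted p of 5.3e-05 and 9.9e-05, and their groups did not overlap. Kl, like Ppara, passed the filter through the F/F-labelled libraries alone, so its call on that scale is no support. In voom on genes with at least 10 reads the order differed: the log2 fold change was -2.40 for Kl (adjusted p = 6.8e-08), -2.15 for Fxyd2, -1.75 for Car12 and -1.74 for Pth1r. The transcription factor Hnf4a went from 7.79 ± 1.24 to 3.76 ± 0.260 FPKM and was called (-0.88).

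Some partners were named after their values were seen. Bsg (basigin), the chaperone that takes Slc16a1 to the membrane, stood at 331, 343 and 339.6 FPKM against 245, 261 and 243 FPKM and fell by 0.44 (SE 0.045, adjusted p = 1.4e-04). The Na,K-ATPase beta subunit Atp1b1 fell by 0.46, from 252 ± 3.31 to 183 ± 7.25 FPKM. Pdzk1, a brush border scaffold like Slc9a3r1, fell by 0.72. The increases were led by Txnip, which promotes the removal of Slc2a1 from the membrane (94.6, 87.5 and 90.0 FPKM against 173, 156 and 159 FPKM, log2 fold change 0.83, adjusted p = 7.4e-06). Next was the kinase Sgk1, which raises the activity of several carriers (53.8 ± 3.28 to 81.8 ± 5.29 FPKM, 0.60).

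**Figure D5:**
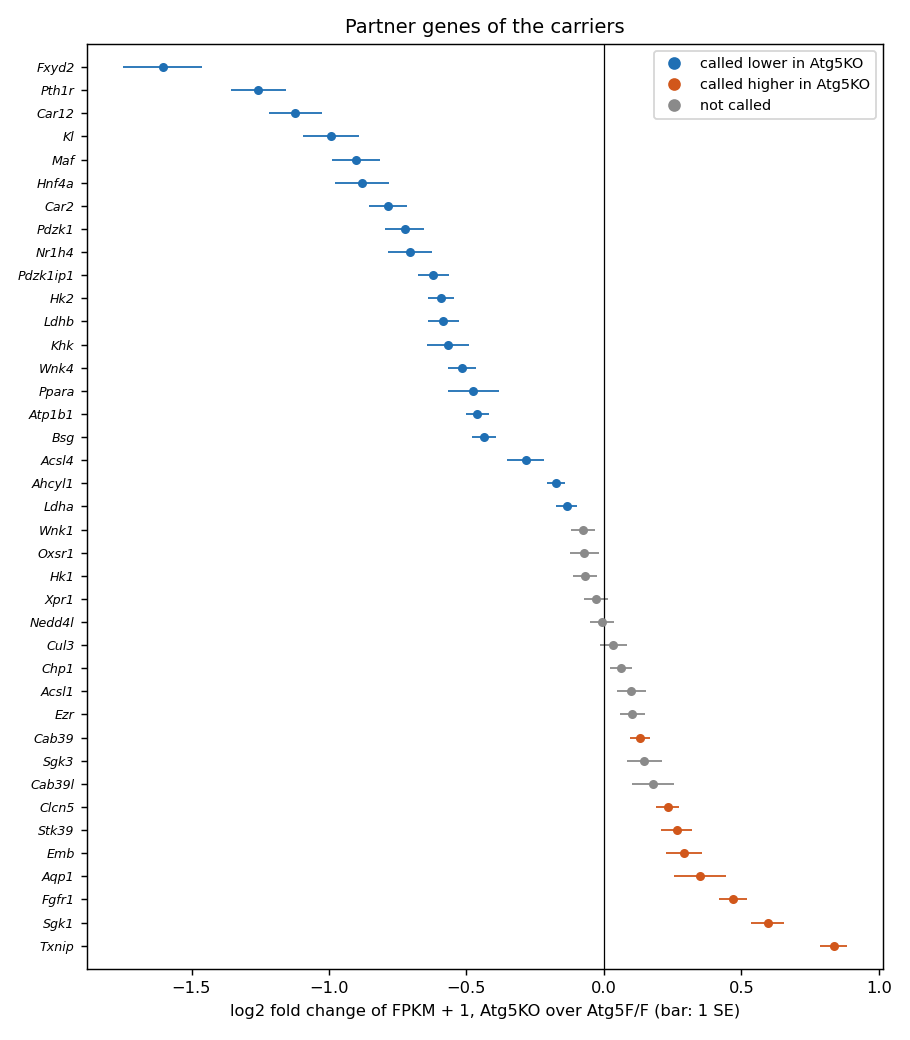
Log2 fold change of FPKM + 1 (horizontal axis, KO-labelled over F/F-labelled, bars of 1 SE) for 39 of the 42 tested partner genes. Fxyd2 and Pth1r lie at the lower end and Txnip and Sgk1 at the upper end.

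The authors' deposited table, which gives its own FDR for all rows, held 38 of the 149 rows lower and 9 higher at an FDR under 0.05. Of all 24421 rows, 11.4% were lower and 10.6% higher at that FDR of the authors' deposited table. The calls differed in part from those of limma. Rows called above but not there were Slc4a11 (authors' FDR 0.249), Slc2a8 (0.109), Slc4a1ap (0.105), Slc22a18 (0.081) and Slc16a13 (0.073). Tested rows not called above but under that FDR were Slc20a1 (0.0090), Slc9a8 (0.021), Slc4a7 (0.021), Slc12a9 (0.024), Slc2a4rg-ps (0.044) and Slc12a7 (0.046).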

How the data were processed

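The authors deposited 1 table, with FPKM in each library for 24421 gene symbols. It also holds the authors' own log2 fold change, p-value and FDR for each row, and a rank score. Per the labels' protocols, the library kit was one for stranded mRNA. The submitters' processing notes name edgeR, featureCounts 1.4.6, HISAT2 2.1.0, Trimmomatic 0.35 and bcl2fastq, and the build GRCm38 (mm10). For the annotation, strand setting and multi-mapping reads of the counting, the choice is not given in the sources used here.

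Genes were tested when 3 or more of the 6 libraries reached 1 FPKM, which left 11559. Their log2(FPKM + 1) values were fitted with limma 3.58.1 in R 4.3.3 (lmFit, eBayes with trend), and the KO-labelled libraries were set against the F/F-labelled ones. P-values were adjusted by Benjamini-Hochberg over all 11559 genes, and a call needed an adjusted p under 0.05. The fit was tested on simulated data first. FPKM steps gave back whole reads for 100% of the 18296 genes above 0 (within 0.0002 reads), holding 99.6% of the implied totals, and limma's voom was run on these reads. Chi-square statistics per degree of freedom between libraries of a group were at least 3.03, so none was a duplicate. Coordinates are from GENCODE vM21 and upstream sequences from RefSeq. Python 3.11.15 with pandas 2.3.3 and numpy 2.4.6 made the tables.

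The members, the partner list and the marker lists were chosen with earlier results of these data known. Named genes were, per family, up to 3 called members with the largest change and the most abundant one, textbook proximal tubule carriers, members beside the filter, and the 6 partners with the largest change. Not every such gene is named, and further members and partners were named after their values were seen. The fit was repeated with the replicate number as a block, with each library left out, with 2 other scalings (median-ratio and quantile), with a pseudocount of 0.1, without the filter or with one of 5 FPKM, by voom on recovered reads, and after removing a loess trend on gene length. Voom on genes with at least 10 reads, with all libraries and without F/F-labelled replicate 2, was added after seeing the data. Partner symbols Cltrn and Ankh had no row under those names. Values of some members and partners are not reported here, and the plots leave those out.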

Additional observations from a re-analysis of the deposited data

How the results depend on the processing

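Of the 26 called carrier rows, 16 were past the threshold in each of the 14 other fits that tested them and 10 were not in at least 1. The 6 higher calls became 3 with the length trend removed and 12 with voom on genes of at least 10 reads. The 20 lower calls became 12 with a filter of 5 FPKM, which tests fewer genes, and 33 with that voom fit, which tests more. Leaving out 1 library gave 2 to 6 higher and 14 to 19 lower calls, and for the partners 6 to 9 higher and 19 to 22 lower. Whether replicate numbers pair the libraries was not settled, as so few pairs cannot decide it. Same-numbered ones correlated at 0.16, 0.08 and -0.02 in their deviations from the group means, and different-numbered ones at -0.13 to 0.047. With the replicate block 5 carrier rows were higher and 18 lower, and 9 and 22 partners. Among the 24 rows not called, 7 passed the threshold in at least 1 other fit, and for the following the sign turned in a value near 0, where the cause was not tested. Leaving out 1 library gave -0.013 to 0.045 for Slc12a2 and -0.093 to 0.011 for Slc27a4, both turning without KO-labelled replicate 3, as did Slc9a2 (-0.028 to 0.15). It gave -0.045 to 0.070 for Slc9a3r2, turning without F/F-labelled replicate 2. For Slco3a1 it gave -0.011 to 0.014, turning without F/F-labelled replicate 3 or KO-labelled replicate 3 (-0.0017). Median-ratio scaling gave Slc12a2 -0.0091 and Slco3a1 -0.024, and quantile normalization gave Slco3a1 -0.035. With the length trend removed Slc12a2 was at -0.058, Slc5a3 at -0.060 and Slco3a1 at -0.063. The number at 1 FPKM or more in either group, 53, was 52 to 54 when a library was left out. Depth limits the carriers under 1 FPKM, such as Slc5a10 with 52 against 3 reads.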

Other observations

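Enzymes that act on what the carriers bring in were part of the partner list and differed among themselves. Hexokinase Hk2 went from 42.7 ± 1.70 to 28.0 ± 1.30 FPKM (SD, n = 3, log2 fold change -0.59, limma adjusted p = 3.7e-05), while Hk1 was not called (53.7 ± 2.19 and 51.1 ± 1.85 FPKM, adjusted p = 0.24). Ketohexokinase Khk, which phosphorylates fructose, went from 8.47 ± 0.197 to 5.41 ± 0.663 FPKM (-0.57, adjusted p = 5.7e-04). Ldhb, a lactate dehydrogenase subunit, went from 135 ± 10.4 to 89.9 ± 2.24 FPKM (-0.58, adjusted p = 9.3e-05). The cytosolic carbonic anhydrase Car2 went from 60 ± 6.20 to 34.3 ± 1.03 FPKM (-0.79, adjusted p = 5.6e-05).

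The kinases that regulate the cation-chloride cotransporters went in both directions. Wnk4 fell from 11.8 ± 0.496 to 7.92 ± 0.249 FPKM (-0.52, adjusted p = 1.1e-04). Stk39 (SPAK), which Wnk kinases activate, rose from 12.5 ± 0.698 to 15.2 ± 0.796 FPKM (0.26, adjusted p = 0.0064), and its relative Oxsr1 was not called (adjusted p = 0.31). Emb (embigin), a chaperone of monocarboxylate carriers like Bsg, rose from 12.1 ± 0.345 to 15.1 ± 1.45 FPKM (0.29, adjusted p = 0.0083), where Bsg fell. Clcn5, an endosomal chloride-proton exchanger of the proximal tubule, rose from 29.6 ± 0.767 to 34.9 ± 1.30 FPKM (0.23, adjusted p = 0.0027).

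By summed FPKM per library, the Slco rows stood at 219 to 233 in the F/F-labelled and 164 to 171 in the KO-labelled libraries, and the Slc2a rows at 282 to 307 and 220.3 to 250.4. Most of each of these sums was 1 gene: Slco2a1 had means of 208 and 147 FPKM and Slc2a1 of 279 and 218 FPKM. Slco3a1 had 17.3 FPKM in both groups, and Slc2a9 rose. The Slc12a rows were higher in the KO-labelled libraries, at 117 to 124 against 112 to 114. The Slc4a rows overlapped, at 163 to 169.8 and 167 to 168. These sums are descriptions and were not tested.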
